A study of Mus musculus with 40 samples.

Results

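The effect of doxorubicin on the prepubertal mouse uterus was measured here in animals that all received anti-Müllerian hormone (AMH), 24 h after treatment. The comparison set 5 libraries from uteri given doxorubicin (3 mg/kg) with AMH (0.75 mg/kg) against 5 libraries from uteri given AMH (0.75 mg/kg) alone, 10 of the 40 RNA-seq libraries of the series. The members were these 10 libraries, taken by treatment and time from the labels, and the 14222 genes with at least 1 FPKM (read fragments scaled to transcript length and library size) in at least 5 of them. The series crossed vehicle, doxorubicin, AMH and both agents with harvest at 4 h and 24 h, 5 libraries in each of 8 groups. Its description gives treatment from postnatal day 25 and 2 weekly doxorubicin doses, and names no strain. AMH was present in both groups compared, so the comparison gives the response to doxorubicin under AMH and does not measure AMH itself. The libraries are numbered as biological replicates, but no label says that each came from a separate mouse, so p-values measure the spread between libraries.

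Doxorubicin is an anthracycline that traps topoisomerase II on DNA and leaves double-strand breaks. The breaks activate the transcription factor p53, which induces the cell cycle inhibitor Cdkn1a (p21), its own inhibitor Mdm2, death genes such as Bbc3 (PUMA) and the microRNA miR-34a. Damaged cells can also turn on interferon-stimulated genes, which a promoter element called the interferon-stimulated response element controls. AMH, the hormone that removes the Müllerian duct in males, binds the receptor Amhr2 and signals through the SMAD1, SMAD5 and SMAD9 proteins, with Id1, Id2 and Id3 among the known targets of that pathway.

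The 10 libraries held 18293669 to 25412824 reads in genes, rebuilt from the deposited FPKM. Uterine patterning and myometrial genes marked the tissue: Hoxa10 was at 56.9 to 110 FPKM and Myh11 at 191 to 390 FPKM, and Amhr2 was at 3.09 to 8.32 FPKM. In uterus as a whole, fewer cells of a type and less RNA per cell cannot be told apart. In some marker lists 3 libraries were the highest of their group, as the plot of marker lists by library shows. AMH library 3 was highest in mitosis genes (mean log2(FPKM + 1) of 4.62, against 1.30 to 3.65 in the other AMH libraries) and in oestrogen-responsive genes (5.13, against 3.43 to 4.16). Doxorubicin + AMH library 4 was highest in oviduct and ciliated-cell markers (5.57, against 2.24 to 3.56), and AMH library 1 in adipocyte markers (6.07, against 0.86 to 4.75). The first principal component held 43.5% of the variance of the 10 libraries and set AMH library 3 (67.46) apart from the rest (-27.37 to 19.64).

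**Figure D1:**
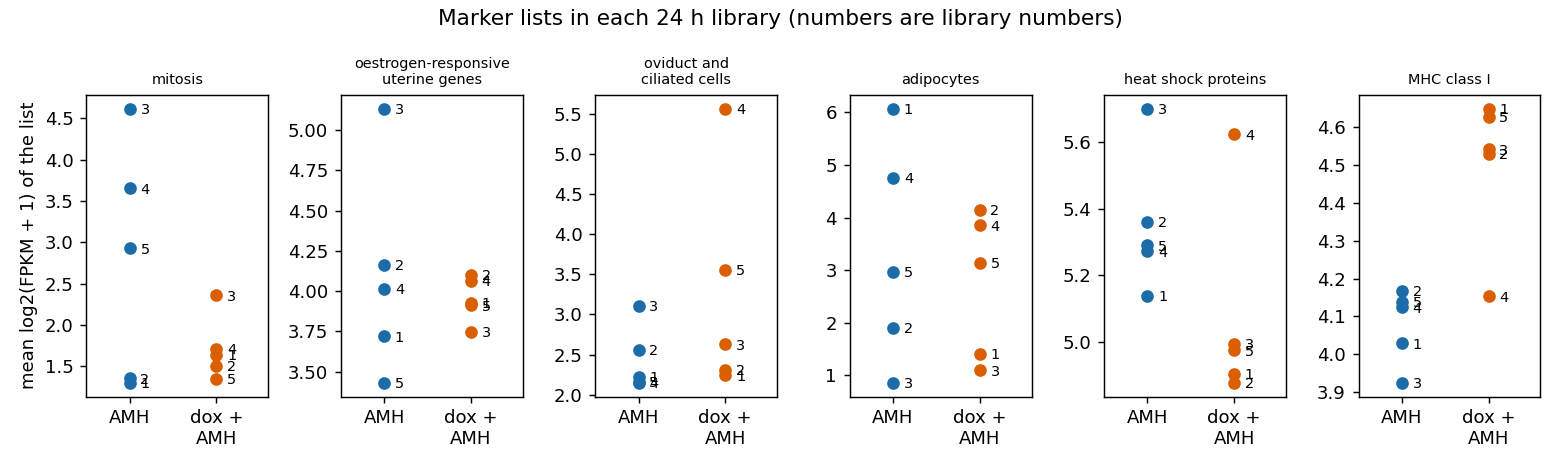
Mean log2(FPKM + 1) of 6 marker lists (y axis) in each AMH and doxorubicin + AMH library at 24 h (x axis), with each point numbered by its library. AMH library 3 is highest in mitosis genes at 4.62, doxorubicin + AMH library 4 in oviduct markers at 5.57 and AMH library 1 in adipocyte markers at 6.07.

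Doxorubicin under AMH changed few genes by the test across all genes, and the 2 that rose most were Serpina3n, a secreted injury-response gene, and Cdkn1a, a p53 target. Of 14222 genes tested with limma on log2(FPKM + 1), 16 passed an adjusted p of 0.05 (0.113%), of which 9 were higher (0.0633%) and 7 lower (0.0492%) with doxorubicin. The unadjusted p was under 0.05 for 2094 genes (14.7%), of which 1014 were higher (7.13%) and 1080 lower (7.59%), and the median log2 difference over all genes was -0.01. In 257 genes (1.81%) the 5 doxorubicin + AMH libraries did not overlap with the 5 AMH libraries, with 146 higher (1.03%) and 111 lower (0.78%), and all 16 genes past the threshold were among them. How many genes passed depended on single libraries: 505 passed without AMH library 1 and 67 without doxorubicin + AMH library 4, but 3 or 4 without AMH library 2, 3, 4 or 5 or without doxorubicin + AMH library 3 or 5, and 6 without doxorubicin + AMH library 2. Without doxorubicin + AMH library 4 and AMH library 3 together, 4 genes passed, of which 3 were among the 16 (Cdkn1a, Usp31 and Slc15a4). Cdkn1a passed under every one of the 21 alternatives run, Gm37795 under 20 and Ephx1 under 19, while each of the other 13 genes lost the call under at least 8.

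**Figure D2:**
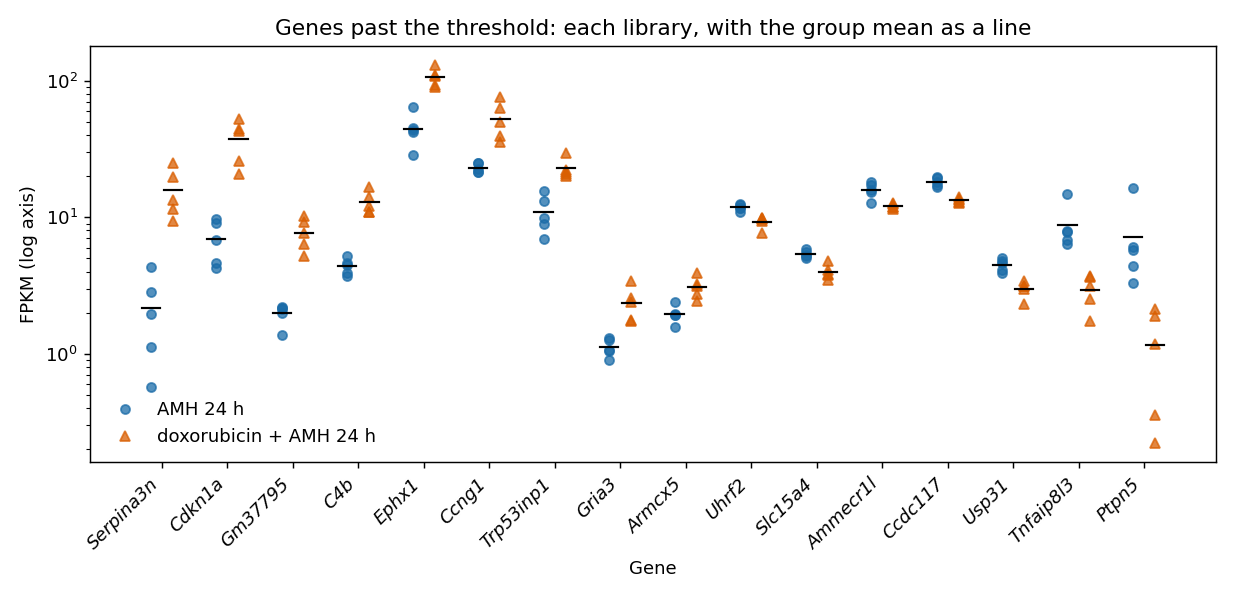
FPKM on a log axis (y axis) of the 16 genes past the threshold (x axis) in each library, with circles for AMH alone, triangles for doxorubicin + AMH and a line at each group mean. The groups do not overlap in any of the 16 genes, and Cdkn1a lies at 20.9 to 52.3 FPKM with doxorubicin against 4.26 to 9.73 FPKM without.

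Cdkn1a, the p53-induced inhibitor of cyclin-dependent kinases (chr17:29090976-29100727, mm10, + strand), was at 20.9, 26.01, 43.2, 52.3 and 44.2 FPKM in doxorubicin + AMH libraries 1 to 5 and at 9.12, 6.81, 9.73, 4.26 and 4.62 FPKM in AMH libraries 1 to 5. The lowest doxorubicin library was above the highest AMH library by more than the whole range of the AMH group. Its log2 difference was 2.26 ± 0.36 (SE), with an adjusted p of 0.00406 in limma. Ephx1, the microsomal epoxide hydrolase (chr1:180976210-181020904, - strand), was at 93.5, 89.5, 131, 110 and 109 FPKM with doxorubicin and 64.7, 44.9, 28.5, 41.96 and 43.4 FPKM without. AMH library 1, the highest of its group, still lay under every doxorubicin library. Ephx1 rose by 1.27 ± 0.21 on the log2 scale (limma adjusted p = 0.00406).

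Ccng1, which encodes cyclin G1, an inhibitor of p53 through Mdm2 (chr11:40748552-40755311, - strand), was at 35.6, 39.4, 63.6, 75.7 and 50.2 FPKM with doxorubicin and 21.4, 25.1, 21.4, 24.9 and 22.6 FPKM without. The AMH libraries lay close together and the doxorubicin libraries spread over a wider range above them. It rose by 1.11 ± 0.23 on the log2 scale (limma adjusted p = 0.0355). Trp53inp1, a nuclear stress protein that binds p53 (chr4:11156431-11174379, + strand), was at 20.7, 20.2, 29.6, 22.2 and 21.6 FPKM with doxorubicin and 15.5, 9.93, 6.97, 8.91 and 13.1 FPKM without. Library 3 was the highest of the doxorubicin group and the lowest of the AMH group. The rise of Trp53inp1 was 1.04 ± 0.22 (limma adjusted p = 0.0409).

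These 4 genes were all of the 54 p53 targets tested that rose, and none fell, where 0.0633% of all genes rose. The number that rose was 13 without AMH library 1 (1.69% of all genes). It was 2 in each of the fits without AMH library 2, 3, 4 or 5 or doxorubicin + AMH library 3 or 5 (0.0211% of all genes in each). With library weights 15 rose and 1 fell (7.17% and 7.83% of all genes). Without doxorubicin + AMH library 4 and AMH library 3 together 1 rose (0.00703% of all genes). With the spread of the 10 libraries alone 2 rose (0.0844% of all genes), and with the spread of the 24 h groups 1 rose (0.0141%). The list's median log2 difference was 0.28, beside -0.01 over all genes, and 43 of 54 members had a positive value. In 10 of the 54 the groups did not overlap, all higher (background 1.03%): besides the 4 these were Bbc3, Gdf15, Ercc5, Dglucy, Tap1 and Slc19a2, all named after their values were seen except Bbc3. Without doxorubicin + AMH library 4 and AMH library 3, 13 of the 54 did not overlap, all higher, against 3.76% of all genes, and the median was 0.26.

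Other p53 targets did not pass the test. Bbc3, a BH3-only death gene, was at 11.1, 13.3, 12.2, 12.9 and 13.1 FPKM with doxorubicin and 9.35, 6.11, 2.89, 5.59 and 5.72 FPKM without. The 2 groups did not overlap, and the doxorubicin libraries agreed within a narrow band. The resulting log2 difference was 1.03 ± 0.25 (limma adjusted p = 0.0915). Gdf15, a stress-induced hormone, was at 1.17, 1.08, 2.99, 4.11 and 2.20 FPKM with doxorubicin and 0.272, 0.382, 0.657, 0.453 and 0.151 FPKM without, with no overlap and a log2 difference of 1.18 ± 0.30 (adjusted p = 0.106). Mdm2, the ubiquitin ligase that degrades p53, was at 11.5, 12.7, 16.3, 16.4 and 14.2 FPKM with doxorubicin and 12.8, 10.1, 8.53, 8.80 and 9.92 FPKM without, and AMH library 1 overlapped with the doxorubicin group. The log2 difference of Mdm2 was 0.46 ± 0.15 (adjusted p = 0.187). Pmaip1 (NOXA), another BH3-only gene, had group means of 1.17 ± 0.377 and 1.15 ± 0.260 FPKM (SD, n = 5), and Trp53 itself 33.9 ± 3.64 and 34.5 ± 2.84 FPKM. Their log2 differences of 0.01 and -0.03 were within 1 SE of 0. Sesn2 and Fas, chosen after their values were seen, had log2 differences of 0.69 ± 0.24 and 0.65 ± 0.23 (adjusted p = 0.215 and 0.223).

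A further transcript rose with these genes and is named here after its values were seen. Gm37795, a gene model not yet verified by experiment (chr4:150068539-150070997, + strand), starts inside the gene of the microRNA precursor Mir34a (chr4:150068454-150068555, + strand) and overlaps its last 17 bases. The mature products of that precursor, from RefSeq (GRCm38.p6, + strand, with the seed, bases 2 to 8, in capitals), are shown because the transcript that rose begins where they end:
mmu-miR-34a-5p: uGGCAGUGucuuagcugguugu
mmu-miR-34a-3p: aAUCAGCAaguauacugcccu
They lie at chr4:150068473-150068494 and chr4:150068517-150068537. Gm37795 was at 5.17, 6.37, 7.64, 10.2 and 9.20 FPKM with doxorubicin and 2.17, 2.21, 1.98, 1.38 and 2.11 FPKM without. Every doxorubicin library was above the highest AMH library, and the log2 difference was 1.53 ± 0.26 (limma adjusted p = 0.00571). Mir34a itself was listed above 0 in 2 of the 40 libraries, at no more than 2.57 FPKM, and the mature microRNA was not measured.

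The promoters of Cdkn1a and Ccng1, p53 targets that rose, are shown because a search added after the data were examined found the p53 half-site motif in them. Each window runs from 250 bases before to 50 bases after a RefSeq start site (GRCm38.p6), 5′ to 3′ on the gene's strand, with the half-site in capitals. The Cdkn1a window is chr17:29090729-29091028 (+ strand), 1 of its 2 windows, and the Ccng1 window is chr11:40755237-40755536 (- strand):
Cdkn1a: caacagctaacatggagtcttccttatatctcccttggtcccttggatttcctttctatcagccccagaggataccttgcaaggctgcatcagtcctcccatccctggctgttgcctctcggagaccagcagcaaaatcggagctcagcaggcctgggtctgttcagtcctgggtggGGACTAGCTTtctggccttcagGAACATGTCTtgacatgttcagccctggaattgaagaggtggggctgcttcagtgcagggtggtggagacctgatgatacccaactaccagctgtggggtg
Ccng1: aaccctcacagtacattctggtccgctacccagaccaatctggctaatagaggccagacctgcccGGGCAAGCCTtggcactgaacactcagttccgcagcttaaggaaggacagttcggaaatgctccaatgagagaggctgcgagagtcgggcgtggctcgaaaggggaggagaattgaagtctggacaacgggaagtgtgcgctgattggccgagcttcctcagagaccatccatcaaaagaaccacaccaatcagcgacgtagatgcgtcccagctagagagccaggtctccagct
The matches begin 73 and 51 bases before the start site in Cdkn1a and 185 bases before it in Ccng1. The motif was in a window of 15 of the 44 p53 targets with a window (34.1%) and of 9.55% of all 27025 genes with one. Of the 10 p53 targets whose groups did not overlap, 9 had a window and 2 of those held it. It was searched on both strands, which for this motif are the same. A match is a description of the letters and not a measured site.

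Serpina3n and C4b, secreted injury-response proteins, rose with doxorubicin. Serpina3n, an inhibitor of serine proteases induced in inflammation (chr12:104406729-104414329, + strand), was at 11.6, 13.4, 9.46, 25.01 and 19.7 FPKM with doxorubicin and 4.35, 1.12, 1.96, 2.83 and 0.566 FPKM without. The lowest doxorubicin library was above the highest AMH library, and Serpina3n had the largest rise among the 16 genes (2.46 ± 0.50 on the log2 scale, limma adjusted p = 0.0355). C4b, complement component 4 (chr17:34728380-34743882, - strand), was at 10.9, 13.99, 12.1, 10.9 and 16.7 FPKM with doxorubicin and 5.21, 3.92, 4.48, 4.62 and 3.73 FPKM without. Both groups were tight and well separated, and C4b rose by 1.36 ± 0.28 (adjusted p = 0.0381). Both genes have close paralogues, and the sources used here do not say how reads were split between copies.

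Of 17 acute-phase and secreted injury genes tested these 2 rose and none fell, where 0.0633% of all genes rose, with a list median of 0.44. Neither passed on leaving out AMH library 2, 3, 4 or 5 or doxorubicin + AMH library 2, 3 or 5. Saa3, a serum amyloid A protein chosen after its values were seen, was at 9.48, 4.94, 9.76, 14.8 and 9.21 FPKM with doxorubicin and 3.79, 0.391, 0.311, 0.805 and 0.215 FPKM without. AMH library 1 was far above the other 4 AMH libraries but under every doxorubicin library. Its log2 difference was 2.49 ± 0.61, with an adjusted p of 0.0915 in limma, and it passed at 0.0478 in the fit of these 10 libraries alone and at 0.0161 without AMH library 1. Gria3, a glutamate receptor subunit, and Armcx5, an X-linked armadillo repeat gene, were the other 2 genes that rose, by 0.65 ± 0.14 and 0.47 ± 0.10 (adjusted p = 0.0381 and 0.0381). Armcx5 overlaps Gprasp1 on the same strand, so its reads are uncertain.

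Interferon-stimulated genes were higher with doxorubicin under AMH as a group, although none of the 57 tested passed limma's threshold in the fit of all 40 libraries. The unadjusted p was under 0.05 in 35 of the 57, all higher, against 7.13% of all genes. In 26 of 57 the doxorubicin and AMH libraries did not overlap, all higher, against 1.03% of all genes. The list's median log2 difference was 0.60, and 55 of 57 members were positive. In the fit of these 10 libraries alone 3 of the 57 rose (Ifit3, Irf7 and Ifi204), where 0.0844% of all genes did, and in voom on rebuilt reads 0 rose. With library weights 22 rose, where 7.17% of all genes did, and without AMH library 1 5 rose, where 1.69% did. Without doxorubicin + AMH library 4 and AMH library 3 the median was 0.62 and 35 of 57 did not overlap, against 3.76% of all genes.

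Ifit3, an antiviral protein with tetratricopeptide repeats (chr19:34583531-34588731, + strand), was at 41.4, 31.7, 34.1, 32.8 and 59.9 FPKM with doxorubicin and 9.71, 13.7, 4.71, 9.89 and 11.6 FPKM without. Every doxorubicin library lay well above the highest AMH library. The resulting log2 difference was 1.93 ± 0.46 (limma adjusted p = 0.0915, and 0.0304 in the fit of these 10 libraries alone). Ifit3b, its near-identical neighbour, had a log2 difference of 1.57 ± 0.39, and how reads were split between the 2 is not given in the sources used here. Irf7, the transcription factor that amplifies the interferon response, was at 21.5, 17.9, 14.3, 18.3 and 28.9 FPKM with doxorubicin and 6.91, 7.19, 4.59, 7.49 and 7.40 FPKM without. AMH library 3 was the lowest of the 10, and no AMH library reached the doxorubicin group. The log2 difference of Irf7 was 1.44 ± 0.38 (adjusted p = 0.116, and 0.0259 in the fit of these 10 libraries alone), and Irf7 overlaps Phrf1 on the other strand.

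Isg15, a ubiquitin-like modifier, was at 34.2, 25.8, 22.6, 34.5 and 50.3 FPKM with doxorubicin and 7.53, 17.9, 16.3, 17.6 and 19.04 FPKM without. Usp18, the protease that removes it, was at 6.65, 4.70, 4.70, 5.49 and 6.68 FPKM with doxorubicin and 1.86, 3.66, 1.99, 3.00 and 4.04 FPKM without. In both genes the groups did not overlap, and the log2 differences were 1.06 ± 0.43 and 0.79 ± 0.31 (adjusted p = 0.267 and 0.246). Rsad2 (viperin), Oasl2 and Ifi27l2a also did not overlap, with log2 differences of 1.08 ± 0.41, 0.98 ± 0.28 and 1.52 ± 0.42. Apart from Ifit3, the interferon genes described here were chosen after their values were seen.

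**Figure D3:**
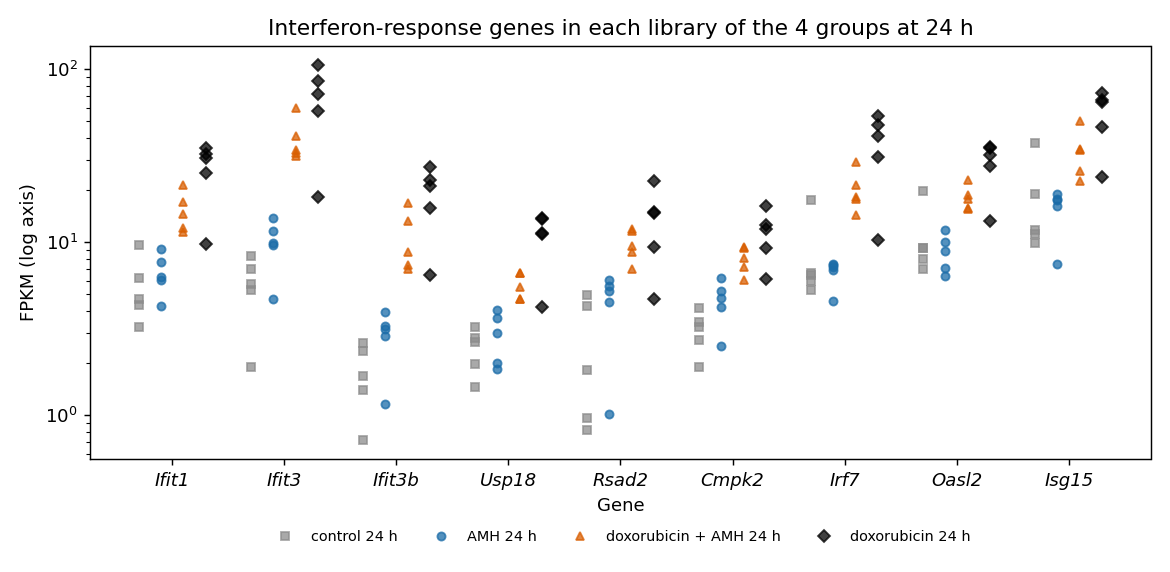
FPKM on a log axis (y axis) of 9 interferon-response genes (x axis) in each library of the 4 groups at 24 h: control (squares), AMH (circles), doxorubicin + AMH (triangles) and doxorubicin (diamonds). Ifit3 lies at 31.7 to 59.9 FPKM in the doxorubicin + AMH libraries and at 4.71 to 13.7 FPKM in the AMH libraries.

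The promoters of Ifit3 and Ifit1 are shown because both hold 2 copies of the core of the interferon-stimulated response element, searched as GAAA, any 2 bases and GAAA again on both strands and in capitals here. The Ifit3 window is chr19:34583279-34583578 (+ strand) and the Ifit1 window chr19:34640639-34640938 (+ strand), from RefSeq on GRCm38.p6:
Ifit3: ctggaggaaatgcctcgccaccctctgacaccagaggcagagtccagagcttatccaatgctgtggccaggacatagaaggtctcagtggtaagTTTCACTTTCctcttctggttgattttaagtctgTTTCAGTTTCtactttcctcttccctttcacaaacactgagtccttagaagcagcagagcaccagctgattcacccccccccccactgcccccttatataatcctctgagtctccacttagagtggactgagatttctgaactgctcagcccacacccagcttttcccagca
Ifit1: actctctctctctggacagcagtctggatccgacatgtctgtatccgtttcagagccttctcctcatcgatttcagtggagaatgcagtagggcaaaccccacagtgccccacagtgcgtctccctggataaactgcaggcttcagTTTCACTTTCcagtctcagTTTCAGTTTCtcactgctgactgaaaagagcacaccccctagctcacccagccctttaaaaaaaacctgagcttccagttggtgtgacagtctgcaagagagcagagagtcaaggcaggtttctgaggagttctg
The copies, which read on the opposite strand here, begin 156 and 122 bases before the start site in Ifit3 and 104 and 85 bases before it in Ifit1. The element was in a window of 24 of the 41 interferon genes with a window (58.5%) and of 3.99% of all 27025 genes with one. Of the 26 genes whose groups did not overlap, 18 had a window and 12 of those held it. Ifit1 was at 17.1, 11.4, 14.7, 12.1 and 21.5 FPKM with doxorubicin and 6.09, 7.73, 4.29, 6.32 and 9.18 FPKM without, with no overlap and a log2 difference of 1.08 ± 0.35 (adjusted p = 0.196).

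MHC class I genes, which present peptides to T cells, had a median log2 difference of 0.45 over 22 tested, and 20 of 22 were positive. None passed in limma or voom, 14 had an unadjusted p under 0.05, all higher (7.13% of all genes), and 12 rose with library weights (7.17%). In 2 of the 22 (B2m and Tap1, named after their values were seen) the groups did not overlap, all higher, against 1.03% of all genes. When doxorubicin + AMH library 4 was left out, 14 did not overlap, against 3.16% of all genes then. Leaving out a library can only raise such a count, and this one was the lowest of its group in the list. It had a mean log2(FPKM + 1) over the list of 4.15, the AMH libraries 3.92 to 4.17 and the other doxorubicin + AMH libraries 4.53 to 4.65. The same library was the highest in oviduct markers, whose part in its MHC class I level was not tested. Macrophage markers had a median log2 difference of 0.15 over 20 genes, with summed levels of 278 to 319 FPKM with doxorubicin and 211 to 328 FPKM without.

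With doxorubicin 7 genes fell, and 2 of them fell by more than 1 on the log2 scale. Ptpn5, the phosphatase STEP that acts on MAP kinases (chr7:47077795-47133684, - strand), was at 0.357, 1.17, 0.220, 2.12 and 1.90 FPKM with doxorubicin and 3.30, 6.01, 16.5, 5.74 and 4.42 FPKM without. AMH library 3 was the highest and doxorubicin + AMH library 3 the lowest of the 10. Its log2 difference was -1.84 ± 0.39 (limma adjusted p = 0.0381). Tnfaip8l3, a carrier of phosphoinositide lipids (chr9:54023405-54068388, - strand), was at 1.73, 3.12, 2.52, 3.69 and 3.64 FPKM with doxorubicin and 6.83, 7.95, 14.8, 6.42 and 7.86 FPKM without. AMH library 3 was again the highest, and without it the 4 other AMH libraries were still above every doxorubicin library. The log2 difference of Tnfaip8l3 was -1.28 ± 0.26 (adjusted p = 0.0381).

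The other 5 genes that fell had smaller log2 differences, from -0.46 to -0.32, with little spread. Ccdc117, a coiled-coil protein, was at 14.2, 13.6, 12.98, 13.4 and 12.7 FPKM with doxorubicin and 16.8, 19.5, 19.6, 18.1 and 17.1 FPKM without, a log2 difference of -0.42 ± 0.08 (limma adjusted p = 0.019). The doxorubicin libraries lay close together and under the lowest AMH library. Usp31, a deubiquitinase, and Uhrf2, a ubiquitin ligase that binds hydroxymethylated DNA, had log2 differences of -0.46 ± 0.09 and -0.32 ± 0.07. Ammecr1l and Slc15a4, an endolysosomal peptide transporter, both had -0.36, with SE of 0.07 and 0.08. Slc15a4 overlaps Glt1d1 on the other strand, so its reads are uncertain.

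Kcnh2, Trpv2 and Lnx2, chosen after their values were seen, did not pass and had lower values as well. Kcnh2, a potassium channel, was at 10.97, 14.7, 9.68, 14.6 and 15.7 FPKM with doxorubicin and 21.1, 21.6, 22.1, 22.3 and 20.7 FPKM without, with no overlap (log2 difference -0.70 ± 0.15, limma adjusted p = 0.0503). Trpv2, a calcium channel, and Lnx2, a ubiquitin ligase, did not overlap either, with log2 differences of -0.52 ± 0.12 and -0.65 ± 0.15. Igf1, the growth factor through which oestrogen drives uterine growth, was at 9.64, 9.97, 10.7, 33.1 and 17.5 FPKM with doxorubicin and 15.7, 25.3, 62.7, 32.5 and 34.8 FPKM without. The groups overlapped, with AMH library 1 under doxorubicin libraries 4 and 5, and doxorubicin library 4 above 3 AMH libraries. The log2 difference of Igf1 was -1.06 ± 0.33 (adjusted p = 0.18), and it passed without AMH library 1 (-1.29, adjusted p = 0.0311) or without doxorubicin + AMH library 4 (-1.34, adjusted p = 0.0486).

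Of 18 smooth muscle genes of the myometrium tested none passed in limma or voom, and 3 had an unadjusted p under 0.05, a share near the 14.7% of all genes. With library weights 1 fell (7.83% of all genes). The median log2 difference was -0.21 with 1 member positive, and -0.12 without AMH library 1. Actg2, enteric smooth muscle actin, was at 153, 195, 186, 229 and 226 FPKM with doxorubicin and 407, 263, 466, 279 and 319 FPKM without. It was the only member whose groups did not overlap (0.78% of all genes, lower), with a log2 difference of -0.79 ± 0.24 (adjusted p = 0.172). Acta2, vascular and visceral smooth muscle actin, was at 1339, 1393, 1509, 1574 and 1538 FPKM with doxorubicin and 2230, 1550, 1758, 1404 and 1856 FPKM without. The Acta2 groups overlapped, and its log2 difference was -0.24 ± 0.15 (adjusted p = 0.442). Acta2 was chosen after its values were seen. Collagen genes had a median of -0.28 over 30 tested, with 10 positive and none past the threshold in limma or voom, 13 at an unadjusted p under 0.05 (14.7% of all genes), and 12 lower with library weights (7.83% of all genes). The median was -0.47 without AMH library 1, where 3 fell (1.86% of all genes), -0.19 without AMH library 4 and -0.16 without AMH library 5. At an unadjusted p under 0.05 there were 2 without AMH library 3 (7.47% of all genes) and 7 without AMH library 4 (11.5%). There were 6 without AMH library 5 (15.6%) and 6 without doxorubicin + AMH library 2 (11.3%). Col6a3, a chain of collagen VI chosen after its values were seen, had group means of 32.6 ± 12.1 and 70.7 ± 37.9 FPKM (SD, n = 5) and a log2 difference of -1.02 ± 0.31 (adjusted p = 0.161).

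Genes of cell division differed widely among the AMH libraries. The 33 mitosis genes tested had a median log2 difference of -1.13, and 32 of them were lower with doxorubicin. None passed in limma or voom, and 16 had an unadjusted p under 0.05 in limma (14.7% of all genes). With the spread of the 10 libraries alone that number was 3 (8.55% of all genes). It was 4 with the spread of the 24 h groups (8.63%) and 3 in voom (15.1%). With library weights 1 rose (7.17% of all genes), and without AMH library 1 also 1 (1.69% of all genes). The number at an unadjusted p under 0.05 was 1 without AMH library 3 (7.47% of all genes) and 1 without AMH library 4 (11.5%). It was 32 without AMH library 1 (25.2%) and 31 without AMH library 2 (13.2%). On leaving out any other library it was 5 to 24 (10.5% to 23.7% of all genes). Top2a, the topoisomerase that doxorubicin traps in dividing cells, was at 2.59, 2.13, 7.33, 3.80 and 1.46 FPKM with doxorubicin and 1.02, 1.63, 49.3, 19.9 and 11.2 FPKM without. AMH library 1 was below all 5 doxorubicin libraries, AMH library 2 was below 4 of them, and AMH libraries 3, 4 and 5 were above all of them. The log2 difference was -1.19 ± 0.69 (adjusted p = 0.416). Mki67, the proliferation marker, had the same split, with AMH libraries 1 and 2 at 0.962 and 1.65 FPKM and libraries 3, 4 and 5 at 35.6, 19.6 and 12.5 FPKM. Without AMH library 3, which was also the highest in oestrogen-responsive genes, the list's median was -0.62, and the part of that library's state in the difference was not tested. Top2b, the isoform of resting cells, had group means of 11.8 ± 1.18 and 11.9 ± 1.76 FPKM and a log2 difference of -0.01 ± 0.10. The 37 DNA replication genes had a median of -0.51 (-0.15 without AMH library 3), with all 37 lower and none past the threshold in limma or voom. Of the 37, 3 had an unadjusted p under 0.05 (14.7% of all genes), and 1 fell with library weights (7.83% of all genes). The unadjusted number was 0 without AMH library 3 (7.47% of all genes) and 13 without AMH library 1 (25.2%). It was 16 without AMH library 2 (13.2%) and 9 without doxorubicin + AMH library 4 (23.7%).

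Genes of the AMH pathway, whose ligand was given in both groups, showed no called difference with doxorubicin. Of 32 AMH and BMP signalling genes tested none passed in limma or voom, and 5 had an unadjusted p under 0.05, a share near the 14.7% of all genes. With library weights 1 rose and 3 fell, where 7.17% and 7.83% of all genes did. The median log2 difference was 0.07. Amhr2, the AMH receptor, was at 3.51, 3.81, 8.32, 5.17 and 4.06 FPKM with doxorubicin and 3.09, 4.13, 3.87, 6.09 and 6.41 FPKM without. The groups overlapped, with only doxorubicin library 3 above the AMH range, and the log2 difference was 0.05 ± 0.28 (limma adjusted p = 0.945). The type I receptors Bmpr1a and Acvr1 had log2 differences of -0.16 ± 0.09 and -0.21 ± 0.10, and the signal carrier Smad9 0.33 ± 0.14. Among the SMAD targets, Id3 was at 78.3, 80.1, 79.4, 57.9 and 71.4 FPKM with doxorubicin and 48.5, 63.6, 37.9, 46.96 and 52.3 FPKM without, and only doxorubicin library 4 lay inside the AMH range. The resulting log2 difference was 0.56 ± 0.17 (adjusted p = 0.177), and those of Id1 and Id2 were 0.20 ± 0.18 and 0.26 ± 0.14. Gm14226, which overlaps the nonagouti gene, had group means of 4.37 ± 1.48 and 4.14 ± 1.44 FPKM. The steroid receptors Esr1 and Pgr had log2 differences of -0.13 ± 0.08 and -0.03 ± 0.15, and Amh itself did not reach the expression filter and was not tested.

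The same drug contrast without AMH, doxorubicin against vehicle control at 24 h, shares no library with this comparison. On the same genes it called 2972 (20.9%), with 1307 higher (9.19%) and 1665 lower (11.7%). Of the 16 genes called under AMH, 12 were also called without it, 75% of the 16 and 0.404% of the 2972, and all 16 had the same sign. Across the 14222 genes the log2 differences with and without AMH had a Pearson r of 0.71 (Spearman 0.72), a description over genes, which are not independent replicates. The difference itself was tested in the same fit: 0 genes (0.0%) differed between the doxorubicin effect with AMH and without AMH in limma, with 597 at an unadjusted p under 0.05, 0 in voom on rebuilt reads and 304 with library weights. A call in 1 contrast and not in the other is therefore not shown to be a difference between them.

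**Figure D4:**
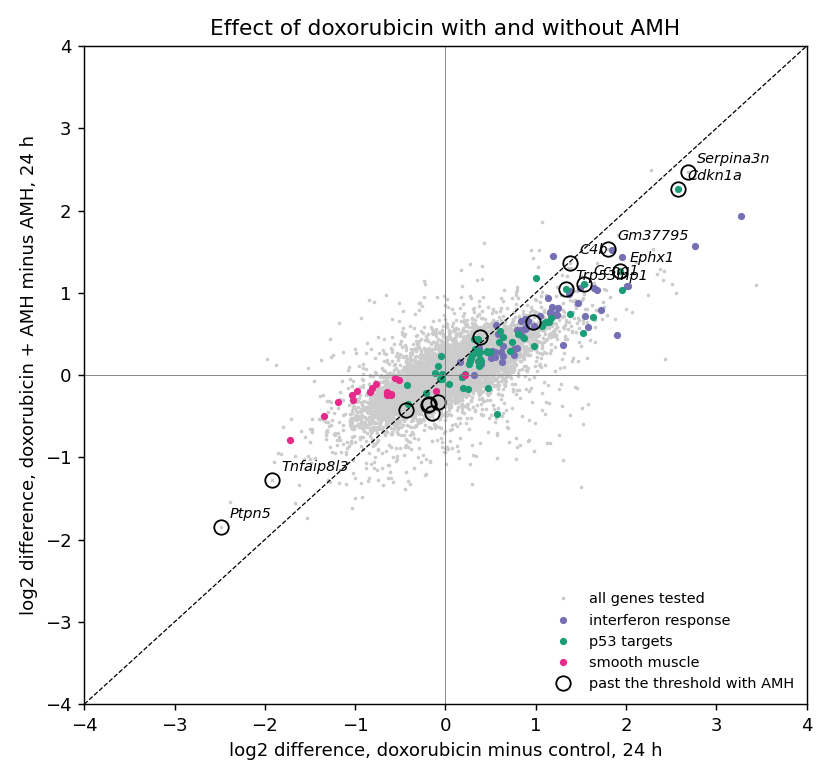
Log2 difference of each of the 14222 genes for doxorubicin with AMH against AMH (y axis) and for doxorubicin against control (x axis), both at 24 h, with 3 gene lists in colour, the 16 called genes circled and equality dashed. Cdkn1a lies at 2.26 with AMH and 2.58 without, and the interferon genes lie mostly under the dashed line.

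Sizes with and without AMH are given side by side for the genes above. Cdkn1a was at 39.7, 96.9, 92.7, 82.5 and 52.7 FPKM with doxorubicin alone and at 15.2, 17.6, 6.37, 13.4 and 6.01 FPKM in control, a log2 difference of 2.58 ± 0.36 against 2.26 ± 0.36 under AMH. The difference of the 2 was -0.32 ± 0.51 (limma adjusted p = 0.945). Ephx1 had 1.94 ± 0.21 without AMH and 1.27 ± 0.21 with it, and the difference of -0.67 ± 0.29 had an adjusted p of 0.931. Bbc3 had 1.95 ± 0.25 and 1.03 ± 0.25 (difference -0.92 ± 0.35, adjusted p = 0.931), where the control libraries lay at 2.02 to 6.60 FPKM and the AMH libraries at 2.89 to 9.35 FPKM. For C4b the values were 1.38 ± 0.28 and 1.36 ± 0.28, and for Serpina3n 2.69 ± 0.50 and 2.46 ± 0.50.

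The interferon list had a median of 0.91 without AMH, where 46 of 57 rose (9.19% of all genes), and 0.60 with AMH, and 55 of 57 members had the smaller size with AMH, beside 70.43% of all genes. Ifit3 had 3.27 ± 0.46 without AMH and 1.93 ± 0.46 with AMH, and the difference of -1.33 ± 0.66 did not pass (adjusted p = 0.931). Its control libraries were at 1.90, 5.31, 6.98, 5.76 and 8.35 FPKM and its doxorubicin libraries at 72.5, 106, 85.2, 57.3 and 18.2 FPKM, with library 5 far under the other 4. The p53 list had medians of 0.43 and 0.28, with 27 of 54 rising without AMH (9.19% of all genes). Not every list had the smaller size with AMH. Mitosis genes had medians of -0.64 without AMH and -1.13 with it (-0.62 on leaving out AMH library 3), and 2 of 33 were smaller with it. The snoRNA host genes had -0.01 and 0.21, with 4 of 14 smaller with AMH. Whether these medians differ was not tested. Smooth muscle genes had -0.71 and -0.21, with 16 of 18 falling without AMH (11.7% of all genes) and 17 of 18 smaller with it. Acta2 was at 3126, 3160, 2187, 2482 and 2032 FPKM in control and 1615, 1024, 1011, 1155 and 1559 FPKM with doxorubicin. Its log2 difference was -1.03 ± 0.15 without AMH, and the difference from the value under AMH was 0.79 ± 0.22 (unadjusted p = 0.000826, adjusted p = 0.931). Oviduct markers were high in doxorubicin libraries 3, 4 and 5 (5.09 to 5.48) and in doxorubicin + AMH library 4. Oestrogen-responsive genes were high in control libraries 1, 2 and 4 (mean log2(FPKM + 1) of 5.48, 5.97 and 5.04). Control libraries 3 and 5 were at 3.72 and 4.09. Among the AMH libraries, library 3 was at 5.13 and the others at 3.43 to 4.16. The part of either list in these differences was not tested.

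At 4 h the same comparison under AMH called 33 genes (0.232%), 8 higher (0.0563%) and 25 lower (0.176%). Among them were 3 of the 16 genes called at 24 h, 18.8% of the 16 and 9.09% of the 33: Cdkn1a, Ccng1 and Gm37795. Cdkn1a was at 16.3 to 37.8 FPKM with doxorubicin and 1.34 to 3.04 FPKM without at 4 h, with a log2 difference of 3.28 ± 0.36. Ccng1 and Gm37795 had 1.26 ± 0.23 and 1.48 ± 0.26. Ephx1 and Trp53inp1, which rose at 24 h, had 0.22 ± 0.21 and 0.03 ± 0.22 at 4 h, where Ephx1 was at 103 ± 21.2 FPKM with doxorubicin and 87.2 ± 7.47 FPKM without (SD, n = 5). In Ephx1 the AMH libraries at 24 h were the lower ones, at 44.7 ± 12.9 FPKM. Mean Trp53inp1 was 17.6 FPKM at 4 h and 10.9 at 24 h in AMH alone, and 18.2 and 22.9 with doxorubicin. Mean Armcx5 was 3.58 and 1.95 FPKM in AMH alone, and 3.16 and 3.08 with doxorubicin. Mean Tnfaip8l3, which fell at 24 h, was 3.66 and 8.77 FPKM in AMH alone, and 3.62 and 2.94 with doxorubicin. Ptpn5 had 0.21 ± 0.39 at 4 h, at means of 1.31 and 0.960 FPKM, under the 24 h mean of AMH alone. No gene (0.0%) passed the test of 24 h against 4 h in limma, 2813 had an unadjusted p under 0.05, 0 passed in voom and 3588 with library weights. That count was 623 without doxorubicin + AMH library 4 of 24 h, 529 without AMH library 1 of 24 h and 6 with a filter of 5 FPKM. Across genes the 24 h and 4 h differences had a Pearson r of -0.20.

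**Figure D5:**
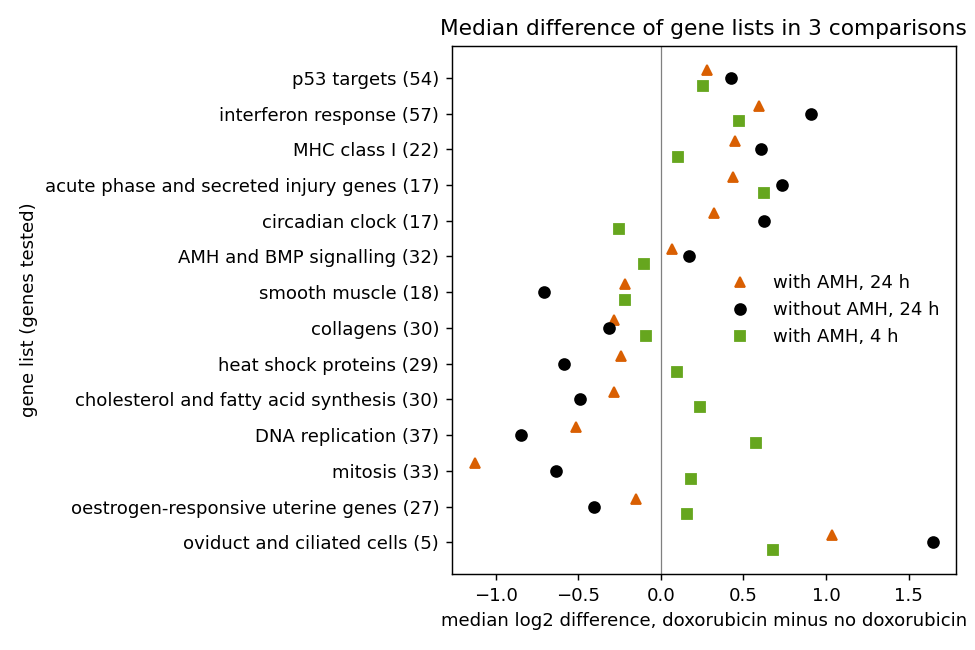
Median log2 difference (x axis) of 14 gene lists (y axis, with the genes tested) for doxorubicin with AMH at 24 h (triangles), without AMH at 24 h (circles) and with AMH at 4 h (squares). Interferon genes have 0.60 with AMH and 0.91 without AMH at 24 h, and smooth muscle genes -0.21 and -0.71.

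Lists differed in whether they kept their sign over time. The p53 targets had medians of 0.28 at 24 h and 0.26 at 4 h under AMH, and the interferon genes 0.60 and 0.47. DNA replication genes had -0.51 at 24 h and 0.58 at 4 h, mitosis genes -1.13 and 0.18, and clock genes 0.32 and -0.25. For these 3 lists no member passed at 24 h in limma or voom. The unadjusted p in limma was under 0.05 in 3 of 37, 16 of 33 and 8 of 17 (14.7% of all genes). With the spread of the 10 libraries alone these numbers were 1, 3 and 6 (8.55% of all genes). In the clock list 9 rose and 1 fell with library weights (7.17% and 7.83% of all genes), and 2 rose without AMH library 1 (1.69% of all genes). Without doxorubicin + AMH library 4, 1 rose (0.232% of all genes) and the median was 0.52. Nr1d1, a clock repressor chosen after its values were seen, was at 56.97, 42.1, 41.01, 19.4 and 37.3 FPKM with doxorubicin and 30.7, 17.5, 5.02, 12.4 and 17.6 FPKM without at 24 h. Doxorubicin library 4 was inside the AMH range and the other 4 were above it. The resulting log2 difference was 1.31 ± 0.30 (adjusted p = 0.0794), it passed without doxorubicin + AMH library 4 (1.53, adjusted p = 0.0285), and Nr1d1 overlaps Thra on the other strand.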

How the data were processed

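RNA-seq was made from 40 mouse uterus libraries, 5 in each of 8 groups, grouped by the sample titles. The authors deposited FPKM values (fragments per kilobase of gene and scaled to library size) and gene lengths for 54532 genes. The reads were aligned to build mm10, per the submitters' processing notes, and the sources used here do not give the aligner, counter, annotation release or strand setting. FPKM multiplied by gene length was scaled so that the smallest value above 0 in a library was 1 read. It came out as whole reads (within 0.01 of a read) for 100% of the lower values, 14432 to 19833 per library. The highest values were not checked. This gave 16251563 to 27391049 reads in genes per library. No replicates were duplicates by a chi-square comparison of their reads.

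The test used log2(FPKM + 1) of the genes that reached 1 FPKM in 5 or more of the 10 libraries, so that fold changes of low genes are understated. limma 3.58.1 in R 4.3.3 fitted the 8 group means of all 40 libraries together with an intensity trend (32 residual degrees of freedom), two-sided, with Benjamini-Hochberg adjustment over 14222 genes and a threshold of 0.05. The differences between doxorubicin effects, with and without AMH and at 24 h and 4 h, were contrasts of the same fit. Other pseudocounts, filters, scalings, spread estimates, library weights, a replicate block, voom on the rebuilt reads and leaving out libraries were tried as alternatives.

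The libraries, gene lists and rules were chosen with earlier results of these data known. Genes were named by 4 rules: up to 15 protein-coding called genes per direction by size with a mean of 2 FPKM or more, up to 4 called genes per list, up to 5 per direction for each difference of effects, and a fixed set of AMH, p53, hormone and muscle genes. Genes outside these, apart from the tissue markers Hoxa10 and Myh11, are named as chosen after their values were seen. Lists are described by counts and medians, with no test. They share some genes, such as Tap1 of the p53 and MHC class I lists, which count in each. Gene positions come from the deposited table, and promoter and microRNA sequences from RefSeq.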

Additional observations from a re-analysis of the deposited data

Results flagged for a closer look

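Most genes and some gene lists described here were each examined for a library far from the other 4 of its group, defined as a gap above 0.71 of the group's whole range. The AMH and BMP signalling, acute-phase, cholesterol, ribosomal protein and snoRNA host lists were not examined. Hoxa10, Myh11, Ercc5, Slc19a2, B2m, Tap1 and Dnajb4 were not examined either. Of 158 groups examined 14 met this. No library met it in the mitosis, oestrogen-responsive, oviduct or adipocyte lists. Chance flags about 1 in 20 groups. The groups share libraries and are not independent, and whether 14 of 158 goes beyond chance was not tested.

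The AMH group held 8 of these. AMH library 3 stood apart in Tnfaip8l3 (14.8 FPKM, against 6.42 to 7.95 in the others), Rsad2 (1.01 against 4.54 to 6.03) and Irf7 (4.58 against 6.91 to 7.49). AMH library 1 stood apart in Isg15 (7.53 FPKM against 16.3 to 19.04), Top2b (8.85 against 12.2 to 13.1) and Saa3 (3.79 against 0.215 to 0.805). AMH library 4 was low in Gm37795 (1.38 FPKM against 1.98 to 2.21), and AMH library 2 was high in Sesn2 (4.97 FPKM against 3.29 to 3.62).

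In the doxorubicin + AMH group, library 3 was high in Trp53inp1 (29.6 FPKM against 20.2 to 22.2) and Id2 (74.5 against 53.7 to 58.8), and library 2 in Id1 (110 FPKM, against 85.3 to 89.6). Library 4 was low in Uhrf2 (7.67 FPKM against 9.44 to 9.92) and in the mean log2(FPKM + 1) of MHC class I genes (4.15 against 4.53 to 4.65). The same library was high in the mean over heat shock genes (5.62 against 4.88 to 4.99).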

How the results depend on the processing

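The number of genes past the threshold rested on few libraries and on the spread model, and the cause was not tested. Library weights were 0.22 for AMH library 3, 0.31 for doxorubicin + AMH library 4 and 0.36 for AMH library 1. They were 0.68 to 2.59 for the other libraries compared. The 16 genes became 19 with a pseudocount of 0.1, 15 with median-of-ratios scaling, 13 with a filter of 5 FPKM, 9 with no filter (31079 genes tested), 13 with the spread of the 10 libraries alone (12 higher, 1 lower, 5 of the 16 kept), 2 with the spread of the 24 h groups, 11 in voom (9 higher, 2 lower, 10 kept) and 2133 with library weights (all 16 kept). Leaving out 1 library gave 3 to 505, and leaving out doxorubicin + AMH library 4 and AMH library 3, chosen after the data were examined, gave 4. For the effect with against without AMH the count was 0, except 304 with library weights and 0 to 1 on leaving out 1 library (1 without doxorubicin library 5). For 24 h against 4 h it was 0, except 6 with a filter of 5 FPKM, 3588 with library weights, 0 to 623 on leaving out 1 library and 1273 without the 24 h libraries high in oviduct or oestrogen-responsive genes, also chosen after the data were examined.

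With the replicate number as a replicate block the count was 15, with 9 of the 16 kept, and 0 for both differences of effects. Same-numbered libraries of the 2 groups had correlations of deviations of 0.0982, 0.0254, -0.0145, 0.0507 and 0.0822, so the numbers were not taken to be paired.

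The 6 named genes whose sign turned lay near 0 and passed in none of these. Amhr2 was -0.227 with library weights, -0.0269 without both libraries and -0.127 to 0.149 leaving out 1. Pmaip1 was -0.0623, -0.0132 and -0.0808 to 0.0771, and Gm14226 -0.0775, -0.122 and -0.0648 to 0.211, in the same order. Top2b was 0.0294 in voom, 0.0193 without both libraries and -0.109 to 0.0194 leaving out 1, and Pgr 0.02, 0.0563 and -0.1999 to 0.0847. Trp53 was 0.0132 in voom and -0.087 to 0.0067 leaving out 1. With 5 libraries a group, a difference that missed the threshold is not shown to be absent.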

Other observations

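Heat shock proteins and chaperones, which refold damaged proteins, were lower with doxorubicin under AMH in 28 of 29 genes tested, with a median log2 difference of -0.24, beside -0.01 over all genes. None passed in limma, 7 had an unadjusted p under 0.05 (14.7% of all genes), and 14 fell with library weights (7.83% of all genes). Dnajb4, an HSP40 co-chaperone chosen after its values were seen, was the only member whose groups did not overlap (-0.33 ± 0.09, adjusted p = 0.124), against 0.78% of all genes, lower. Without AMH the median was -0.58 and 20 of 29 fell in limma (11.7% of all genes), and whether the 2 medians differ was not tested. Doxorubicin + AMH library 4 was the highest of its group in the list's summed level (3160 FPKM, against 1999 to 2289 in the other 4). When it was left out the median was -0.36 and 1 gene fell past the threshold (0.239% of all genes). The median was -0.14 without AMH library 3, and 3 genes fell without AMH library 1 (1.86% of all genes).

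Cholesterol and fatty acid synthesis genes had a median of -0.28, with 29 of 30 lower and none past the threshold in limma. The median was -0.08 without AMH library 3 and -0.46 without doxorubicin + AMH library 4. Ribosomal protein genes were higher in 53 of 59 (median 0.09, none past the threshold), and snoRNA host genes in 12 of 14 (median 0.21, none past the threshold). Adipocyte markers had a median of -0.74, which was -0.05 without AMH library 1. Oviduct and ciliated-cell markers had a median of 1.04 over 5 genes tested, which was 0.13 without doxorubicin + AMH library 4.

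Some genes that did not pass, chosen after their values were seen, had groups that did not overlap. Zbtb16, a zinc-finger repressor induced by glucocorticoids and progestins, was at 10.5, 11.6, 3.83, 6.23 and 3.96 FPKM with doxorubicin and 2.63, 1.65, 0.965, 1.85 and 2.42 FPKM without. Serpine2, an inhibitor of serine proteases, was at 9.41 to 18.5 FPKM with doxorubicin and 6.21 to 9.25 FPKM without, and Gm47136 at 6.90 to 8.96 FPKM and 0.619 to 3.62 FPKM.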
